A study of Mus musculus with 8 samples.

Results

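Imprinted genes are genes of which mainly 1 parental copy is expressed. The list held 42 symbols of known imprinted genes of the mouse, and each was looked up in a table of 20701 genes, keeping the transcript with the highest mean count. A row was found for 35 of them, of which 22 are known as paternally expressed, 12 as maternally expressed and 1, Gnas, differs by promoter. Their levels come from RNA sequencing (polyadenylated RNA) of the OFT/RV, that is the outflow tract with the right ventricle, dissected from single C57BL/6 embryos at E10.5. The 4 CTRL embryos are labelled wild type, and the 4 Isl1_hypo embryos are Isl1 hypomorphs (Isl1-f;neo/f;neo), homozygous for an allele with reduced expression of the LIM-homeodomain factor Isl1. The allele is carried in all cells of the embryo and is not restricted to the heart.

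Genomic imprinting is set in the germ line, where DNA methylation is laid down at differentially methylated regions on either the egg or the sperm chromosome and is then kept in the embryo. Most imprinted genes lie in domains in which a single such region controls several neighbours, some expressed from the maternal copy and some from the paternal copy. Many of them act on embryonic and placental growth, with paternally expressed growth promoters such as Igf2 and maternally expressed growth inhibitors such as Cdkn1c and Grb10 as the textbook examples. The reads were not assigned to parental copies and the embryos share an inbred strain, so the parental class of each gene below is background and only its total level was measured. The classes are those generally known for the mouse, and for some genes they may hold only in tissues other than the OFT/RV.

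The long non-coding RNAs H19, Kcnq1ot1, Meg3, Rian, Mirg and Peg13 had no row under their symbols or RefSeq accessions, and Nespas had none under its symbol. The levels of these 7 genes were not analysed here. Of the 35 genes with a row, 33 passed the filter on low counts, 20 paternally expressed, 12 maternally expressed and Gnas. Dio3, a deiodinase that inactivates thyroid hormone, had counts of 10, 3, 5 and 24 in the CTRL embryos (here and below in the order of replicates 1 to 4) and of 0, 7, 0 and 0 in the Isl1_hypo embryos. Rasgrf1, an exchange factor for Ras proteins, had at most 4 counts in any library. Both were left untested, and at this depth a count of 0 allows up to 0.0641 to 0.163 CPM (counts scaled to library size by the TMM method), depending on the library.

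Promoter windows of 300 bases are shown for 4 of the genes with an unadjusted p under 0.05 in the comparison below, Asb4, Phlda2, Tspan32 and Mest. They run from 250 bases before to 50 bases after an annotated start (RefSeq, GRCm38.p6) and read 5′ to 3′ on the strand of the gene, with each CpG dinucleotide, the target of DNA methylation, in capitals. The Asb4 window (the upstream of 2) lies at chr6:5383136-5383435 on the plus strand, that of Phlda2 at chr7:143502475-143502774 on the minus strand, that of Tspan32 at chr7:143004796-143005095 on the plus strand, and that of Mest (1 of 3) at chr6:30737800-30738099 on the plus strand.
Asb4: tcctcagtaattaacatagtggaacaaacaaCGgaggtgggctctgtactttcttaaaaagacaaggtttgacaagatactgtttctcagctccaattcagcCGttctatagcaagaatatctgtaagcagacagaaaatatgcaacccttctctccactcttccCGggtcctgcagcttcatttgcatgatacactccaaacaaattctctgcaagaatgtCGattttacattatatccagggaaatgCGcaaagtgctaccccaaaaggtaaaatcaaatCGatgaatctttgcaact
Phlda2: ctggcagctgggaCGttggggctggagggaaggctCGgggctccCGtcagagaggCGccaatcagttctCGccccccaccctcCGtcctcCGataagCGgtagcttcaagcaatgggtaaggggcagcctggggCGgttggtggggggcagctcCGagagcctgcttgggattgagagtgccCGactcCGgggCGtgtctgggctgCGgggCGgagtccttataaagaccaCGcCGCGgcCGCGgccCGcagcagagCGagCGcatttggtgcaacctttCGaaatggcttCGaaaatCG
Tspan32: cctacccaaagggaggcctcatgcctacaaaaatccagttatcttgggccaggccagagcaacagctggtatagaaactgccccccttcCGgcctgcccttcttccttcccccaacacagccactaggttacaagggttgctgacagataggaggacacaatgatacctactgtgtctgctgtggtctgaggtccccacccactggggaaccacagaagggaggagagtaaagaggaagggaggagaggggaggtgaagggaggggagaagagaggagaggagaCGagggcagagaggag
Mest: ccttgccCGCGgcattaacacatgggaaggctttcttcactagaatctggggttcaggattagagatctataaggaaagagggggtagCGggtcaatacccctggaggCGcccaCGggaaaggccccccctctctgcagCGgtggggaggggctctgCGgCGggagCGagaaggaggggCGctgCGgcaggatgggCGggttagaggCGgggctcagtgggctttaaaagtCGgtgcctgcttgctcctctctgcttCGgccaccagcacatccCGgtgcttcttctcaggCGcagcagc
The windows hold 6 CpG in Asb4, 26 in Phlda2, 2 in Tspan32 and 17 in Mest, against a median of 7 over 32851 windows of all genes. Over the 39 windows found for 27 of the 33 tested genes the median was 15. TGCCGC, the core of the site bound by ZFP57, a zinc finger protein that keeps imprints methylated, was searched on both strands. It was present in 10 of the 39 windows (25.6%) and in 11.6% of all windows. Of all 46 windows found for listed genes, 15 belong to genes whose promoter is known to lie in a germline differentially methylated region. The site was in 7 of these (46.7%) and in 4 of the other 31 (12.9%). TGCCGC itself holds a CpG, and the shares were not adjusted for CpG content. Some genes have several windows, and those of Mest and of Peg3 with Usp29 overlap. The Mest window above holds it 2 times on the minus strand, where the printed strand reads GCGGCA. The facing promoters of Peg3 and Usp29 share 263 bases. No methylation was measured in these embryos, and a match of letters is only a description.

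In the CTRL OFT/RV the tested genes spanned a wide range of levels. Scaled to transcript length, Mest, which encodes an alpha/beta hydrolase-fold protein of mesoderm, was the highest at 2440 CPM per kb, rank 13 of 13769 tested genes. It was followed by Cd81, a tetraspanin, at 531 CPM per kb, and by Grb10, an adaptor that dampens insulin and growth factor receptor signalling, at 379. Cdkn1c, which encodes the cyclin-dependent kinase inhibitor p57, stood at 306, Ndn, a MAGE family protein, at 265, and Nnat, a small membrane proteolipid, at 194 CPM per kb. These 6, with Gnas, Peg3 and Plagl1, made 9 of 33 in the top 10% of tested genes by length-scaled level. At the other end, Magel2, Rtl1 and Ascl2 were each below 0.3 CPM per kb. Without length scaling, 10 genes had a CTRL mean of at least 100 CPM, 13 lay between 10 and 100, and 10 were under 10 CPM.

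**Figure D1:**
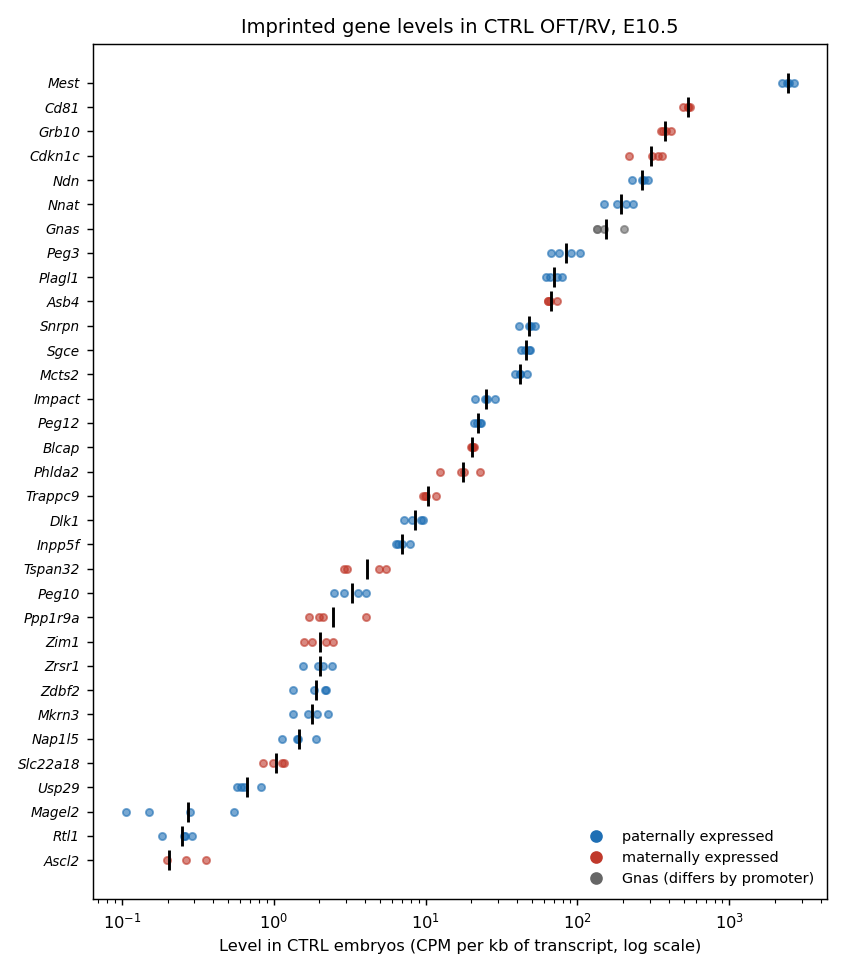
Level of each tested imprinted gene in the CTRL embryos, in CPM per kb of transcript on a log axis; each point is 1 of 4 embryos, the black mark is the mean, and values of 0 are not drawn. Mest stands at 2440 CPM per kb, above Cd81 at 531 and Grb10 at 379, and Ascl2 is the lowest at 0.205.

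The gap from Mest to Cd81 and that from Cd81 to Grb10 were larger than the spread of either gene over the CTRL embryos. Some neighbours further down did not differ beyond their spread. Cdkn1c at 306 ± 62.3 and Ndn at 265 ± 27.1 CPM per kb (SD, n = 4) differed by less than the SD of Cdkn1c, and Peg3 at 83.9 ± 16.4 and Plagl1 at 70.4 ± 7.66 CPM per kb by less than that of Peg3. Over all libraries the genes with a row summed to 12392 to 13583 CPM in CTRL and 13474 to 14132 CPM in Isl1_hypo, and Mest alone made 47.0% to 56.5% of the sum.

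Facts of the libraries bear on what follows. The CTRL libraries held 29748458 to 46678973 counts and those of Isl1_hypo 18422245 to 33050298. Isl1, the targeted gene, was at 29.6 to 61.5 CPM in CTRL and 6.86 to 12.7 CPM in Isl1_hypo (log2 fold change −2.29, SE 0.256, adjusted p = 0.0077 by edgeR's quasi-likelihood test). Cardiomyocyte markers were high in every library, with 30903 to 40122 CPM summed over 6 genes, mostly Actc1. Of these 6, 3 were higher and 3 lower in Isl1_hypo, Myh7 (−0.49, edgeR unadjusted p = 0.00202) and Myh6 (−0.31, unadjusted p = 0.0396) among the lower. Of 7 mesenchyme markers 6 were lower, 2 with an unadjusted p under 0.05, and their sums ran from 1778 to 2651 CPM in CTRL and from 1041 to 3087 CPM in Isl1_hypo. Globin genes made 0.212% to 1.19% of counts in CTRL and 1.18% to 2.44% in Isl1_hypo (exact 2-sided permutation test, p = 0.0571). All 8 erythroid markers were higher in Isl1_hypo, their sums running from 1973 to 11573 CPM in CTRL and from 11581 to 24488 CPM in Isl1_hypo. Isl1_hypo replicate 3 stood apart, with a first principal component score of 72.0 against −17.7 to 3.97 in the other 7 libraries, and it was the lowest library for 11 and the highest for 7 of the 33 genes, beside 28.4% and 26.2% of all tested genes. Epithelial markers summed to 94.8 to 172 CPM in CTRL and 179 to 381 CPM in Isl1_hypo, most in replicate 1.

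The comparison of Isl1_hypo with CTRL asked whether reduced Isl1 went with a change in imprinted gene levels. None of the 33 genes passed an adjusted p of 0.05 (edgeR's quasi-likelihood test, Benjamini-Hochberg adjustment over all genes), where 0.269% of all tested genes did (0.145% higher and 0.123% lower in Isl1_hypo). DESeq2 called 2, Asb4 and Tspan32, beside 2.32% of all tested genes. At an unadjusted p under 0.05, 5 of 33 genes (15.2%) passed, 2 higher and 3 lower, beside 11.9% of all tested genes (5.69% higher and 6.17% lower). Among the lower was Magel2, which passed the filter on low counts only through CTRL, where it is high. The groups did not overlap in CPM for 2 of 33 genes, Mest and Asb4 (6.06%), beside 8.5% of all tested genes. The edgeR shares are near the background, while the 2 genes called by DESeq2 are 6.06% of the 33. In all, 15 genes had a positive and 18 a negative log2 fold change, with a median of −0.07 against 0.01 over all genes.

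The parental classes were then examined separately. Of the 20 paternally expressed genes 10 had a positive and 10 a negative log2 fold change, with a median of −0.00, and 2 passed an unadjusted p of 0.05, Mest and Magel2, beside 11.9% of all tested genes. Of the 12 maternally expressed genes 5 were positive and 7 negative, with a median of −0.06, and 3 passed, Tspan32, Asb4 and Phlda2, beside the same 11.9%. The difference between the classes was not tested.

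**Figure D2:**
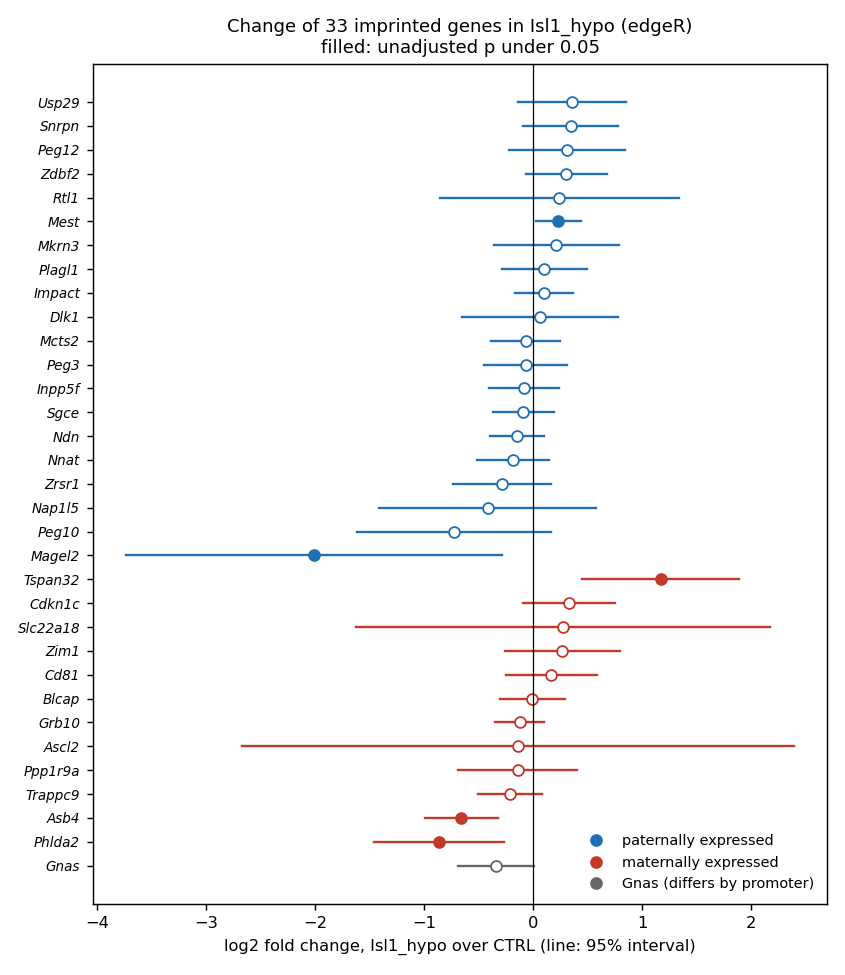
Log2 fold change of each tested imprinted gene in Isl1_hypo over CTRL (points) with its 95% interval (lines), 4 embryos per group; filled points have an unadjusted p under 0.05. Values run from −2.01 for Magel2 to 1.17 for Tspan32, and 15 of 33 lie above 0. Magel2 passed the filter on low counts only through CTRL.

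Asb4 encodes an ankyrin repeat and SOCS box protein of embryonic vessels, and is maternally expressed from the Peg10 domain (chr6:5333386-5383022, mm9, plus strand). Its level was 210, 239, 217 and 211 CPM in the CTRL embryos and 189, 127, 109 and 132 CPM in the Isl1_hypo embryos. Every Isl1_hypo embryo was below every CTRL embryo, with replicate 1 the closest. The means were 219 ± 13.6 and 139 ± 34.5 CPM (SD, n = 4), and the log2 fold change was −0.66 (SE 0.153, 95% interval −0.99 to −0.32, unadjusted p = 0.00113, adjusted p = 0.126 by edgeR). Without Isl1_hypo replicate 1 the change was −0.84, with an adjusted p of 0.0228 by edgeR, and without replicate 3 it was −0.56. In bulk tissue, fewer cells of a type and less RNA per cell cannot be told apart. The 6 endothelial markers summed to 644 to 751 CPM in CTRL and 492 to 631 CPM in Isl1_hypo. Of these 5 were lower, and Emcn was at 72.5 against 84.9 CPM. The groups did not overlap for Pecam1 and Cdh5 (33.3% of the 6, beside 8.5% of all tested genes). For Cdh5 the margin was small, with at least 77.7 CPM in CTRL and at most 76.0 CPM in Isl1_hypo. The part of endothelial cells in the Asb4 values was not tested.

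The other genes of the Peg10 domain also had negative values, none of which passed the test. Peg10, a retrotransposon-derived gene required in the placenta, was at 16.6, 23.8, 19.4 and 27.1 CPM in CTRL and at 23.0, 15.9, 3.86 and 10.2 CPM in Isl1_hypo (log2 fold change −0.72, edgeR unadjusted p = 0.100). The groups overlapped, with Isl1_hypo replicate 3 the lowest of all. The value was −0.42 without that library and −1.13 without replicate 1 (edgeR unadjusted p = 0.0139). Sgce, epsilon-sarcoglycan, had a log2 fold change of −0.09 and Ppp1r9a, the actin-binding protein neurabin, one of −0.14. Ppp1r9a was highest in CTRL replicate 1, and without that library its value was 0.20.

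**Figure D3:**
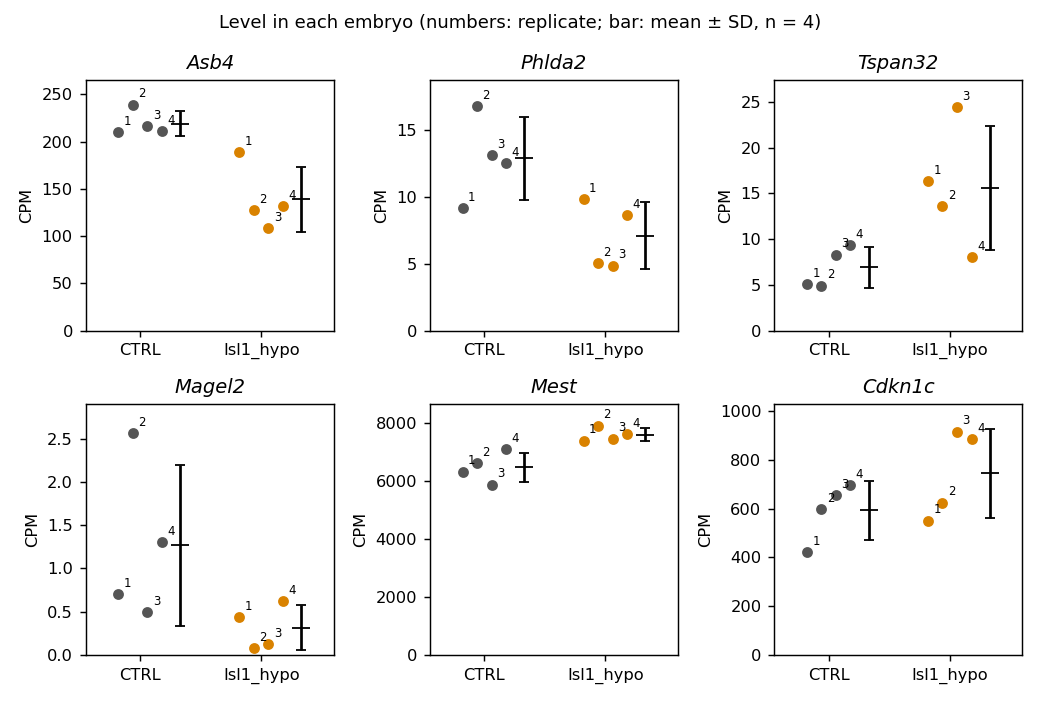
CPM (from 0) in each CTRL and Isl1_hypo embryo for the 5 genes with an unadjusted p under 0.05 and for Cdkn1c; digits give the replicate and bars the mean ± SD (n = 4). The groups do not overlap for Asb4 and Mest, and they overlap for the other 4 genes.

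The Kcnq1 domain on chromosome 7 gave values in both directions, 4 positive and 2 negative. Phlda2, which encodes a pleckstrin homology protein that limits placental growth (chr7:150687450-150688446, mm9, minus strand), was at 9.18, 16.8, 13.1 and 12.5 CPM in CTRL and at 9.83, 5.06, 4.87 and 8.65 CPM in Isl1_hypo. All Isl1_hypo embryos but replicate 1 were below all CTRL embryos, and replicate 1 lay just above the lowest CTRL value. Its log2 fold change was −0.87 (SE 0.273, 95% interval −1.47 to −0.27, unadjusted p = 0.00848, adjusted p = 0.265 by edgeR).

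Tspan32, a tetraspanin of blood cells (chr7:150190951-150205549, mm9, plus strand), was the gene with the largest positive value of the 33. It was at 5.12, 4.92, 8.29 and 9.32 CPM in CTRL and at 16.3, 13.6, 24.4 and 8.03 CPM in Isl1_hypo. Isl1_hypo replicate 4 lay within the CTRL range and the other 3 embryos above it. The log2 fold change was 1.17 (SE 0.329, 95% interval 0.45 to 1.89, unadjusted p = 0.00419, adjusted p = 0.203 by edgeR), and 0.87 without replicate 3. The globin share was 0.212%, 0.273%, 0.464% and 1.19% in the CTRL embryos and 1.86%, 1.18%, 2.44% and 1.53% in the Isl1_hypo embryos. Isl1_hypo replicate 3 had the highest and CTRL replicates 1 and 2 the lowest values of both measures. Isl1_hypo replicate 4 was at 8.03 CPM and 1.53%, and CTRL replicate 3 at 8.29 CPM and 0.464%. Isl1_hypo replicate 2 was at 13.6 CPM and 1.18%, and CTRL replicate 4 at 9.32 CPM and 1.19%. How far both measures go together was not tested. Tspan32 had a log2 fold change of 0.21 in a fit that included the log2 globin share (edgeR, unadjusted p = 0.663). The globin share nearly follows the groups, so the part of either cannot be told apart in that fit, where Isl1 itself had an adjusted p of 0.632 by edgeR. In it Asb4 was at −0.59, Phlda2 at −0.90 and Mest at 0.16, and 3.83% of all genes had an unadjusted p under 0.05.

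**Figure D4:**
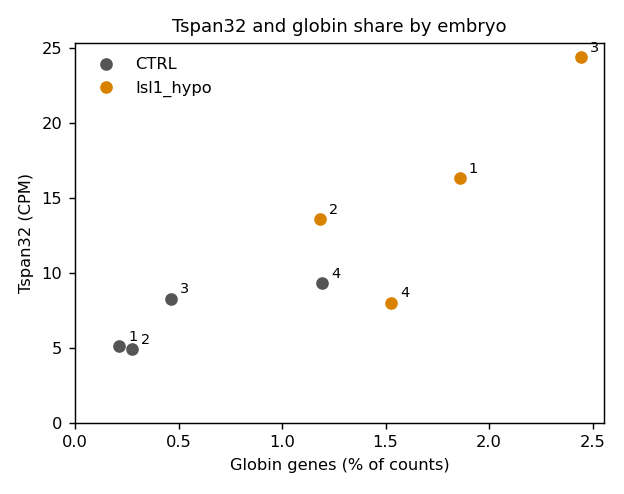
Tspan32 in CPM against the globin share of counts in percent, 1 point per embryo with its replicate number. Isl1_hypo replicate 3 has the highest value of both (24.4 CPM, 2.44%) and CTRL replicates 1 and 2 the lowest. Isl1_hypo replicate 4 is at 8.03 CPM and 1.53%.

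Cdkn1c was at 422, 599, 655 and 696 CPM in CTRL and at 552, 626, 917 and 885 CPM in Isl1_hypo. The groups overlapped, and Isl1_hypo replicates 3 and 4 were above all CTRL embryos. Its log2 fold change was 0.33 (SE 0.192, 95% interval −0.09 to 0.75, edgeR unadjusted p = 0.113), and it was −0.15 with the globin covariate. Leaving out 1 library gave 0.19 (without CTRL replicate 1) to 0.45 (without Isl1_hypo replicate 1, edgeR unadjusted p = 0.0353). Cd81 was at 749, 811, 811 and 835 CPM in CTRL and at 799, 835, 1337 and 627 CPM in Isl1_hypo. Only Isl1_hypo replicate 3 was above the CTRL range by more than the CTRL spread, and the log2 fold change of 0.17 became −0.09 without it. Slc22a18, a membrane transporter, had 0 counts in Isl1_hypo replicate 3 and 1.45 to 3.53 CPM in the other Isl1_hypo embryos, against 1.27 to 1.75 CPM in CTRL. Ascl2, a basic helix-loop-helix factor of the trophoblast, was under 1 CPM in all libraries.

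Mest (chr6:30673547-30698457, mm9, plus strand) was at 6322, 6604, 5869 and 7084 CPM in CTRL and at 7389, 7907, 7459 and 7617 CPM in Isl1_hypo. Every Isl1_hypo embryo was above every CTRL embryo, by a small margin at CTRL replicate 4. The means were 6470 ± 509 and 7593 ± 230 CPM (SD, n = 4), and the log2 fold change was 0.23 (SE 0.095, 95% interval 0.02 to 0.44, unadjusted p = 0.0323, adjusted p = 0.364 by edgeR). The unadjusted p was not under 0.05 in 8 of 15 alternatives, with log2 fold changes from 0.16 to 0.28. The antisense neighbour Copg2, a coatomer subunit that is imprinted in some tissues, shares 904 exon bases with Mest, 23.0% of the exon bases of Mest. The counting ignored strand, so reads in that stretch cannot be told apart. Copg2 had a log2 fold change of 0.30 (edgeR unadjusted p = 0.0205).

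The Snrpn domain held the lowest fold change of the 33. Magel2, a MAGE family protein, was at 0.704, 2.56, 0.497 and 1.3 CPM in CTRL and at 0.434, 0.0749, 0.126 and 0.623 CPM in Isl1_hypo. The groups overlapped at these very low levels, and Isl1_hypo replicate 2 was below the 3-count floor. Counts were 22, 104, 20 and 61 in CTRL and 8, 2, 4 and 18 in Isl1_hypo. Magel2 thus passed the filter on low counts only through CTRL, and its test, tied to the group where it is high, is description only. The log2 fold change was −2.01 (SE 0.787, 95% interval −3.74 to −0.29, unadjusted p = 0.0259, adjusted p = 0.339 by edgeR). It ran from −1.41 without CTRL replicate 2 to −2.63 without Isl1_hypo replicate 4, and the unadjusted p was not under 0.05 in 5 of the 14 alternatives that gave a value. Ndn was at 377, 484, 436 and 449 CPM in CTRL and at 439, 390, 340 and 407 CPM in Isl1_hypo. The ranges overlapped and the log2 fold change was −0.15 (95% interval −0.40 to 0.10). Snrpn, a splicing protein gene, and Peg12, a Frat family inhibitor of the kinase GSK3, were both highest in Isl1_hypo replicate 3, at 174 and 123 CPM. Their log2 fold changes of 0.35 and 0.31 became 0.10 and −0.07 without it. Snrpn was at 0.45 without replicate 1 and 0.47 without replicate 2 (edgeR unadjusted p = 0.0445 and 0.0348).

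**Figure D5:**
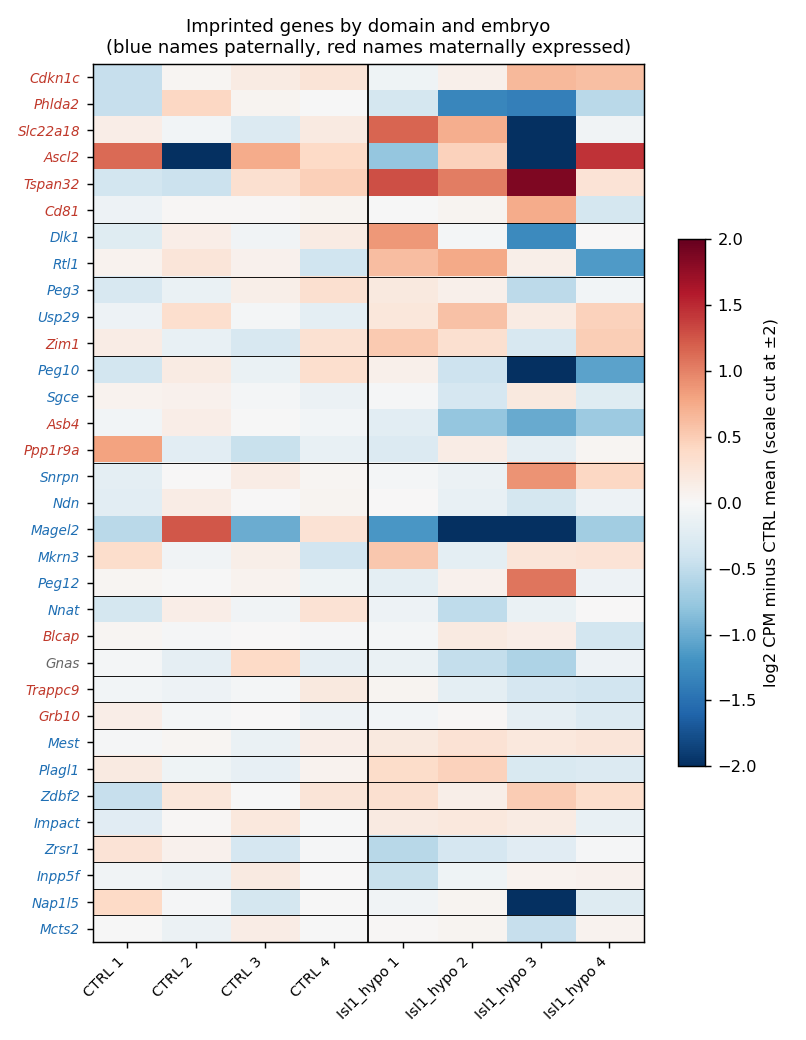
Log2 CPM minus the CTRL mean for each tested imprinted gene (rows, grouped by domain) in each embryo (columns), with colours cut at 2 in either direction. Asb4 is below the CTRL mean in all 4 Isl1_hypo embryos and Mest above it, and Isl1_hypo replicate 3 is the lowest library for 11 of the 33 genes, beside 28.4% of all tested genes.

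Growth regulators of other domains overlapped between the groups. Grb10 was at 2093, 1864, 1933 and 1788 CPM in CTRL and at 1836, 1942, 1697 and 1579 CPM in Isl1_hypo. Isl1_hypo replicates 1 and 2 lay inside the CTRL range and replicates 3 and 4 below it, and the log2 fold change was −0.12 (SE 0.102, 95% interval −0.35 to 0.10, edgeR unadjusted p = 0.255). Plagl1, a zinc finger transcription factor that restrains the cell cycle, was at 418, 348, 328 and 386 CPM in CTRL and at 476, 507, 298 and 305 CPM in Isl1_hypo. A pair of Isl1_hypo embryos lay above and a pair below all CTRL embryos, with a log2 fold change of 0.10. Dlk1, a membrane relative of Notch ligands that holds back differentiation, was at 31.3, 40.4, 35.3 and 41.5 CPM in CTRL and at 67.1, 36.1, 15.3 and 37.1 CPM in Isl1_hypo. Both extremes were Isl1_hypo embryos. Its log2 fold change was 0.06 (95% interval −0.66 to 0.78) and ran from −0.34 without Isl1_hypo replicate 1 to 0.33 without Isl1_hypo replicate 3. Rtl1, a retrotransposon-derived gene of the same domain, had a log2 fold change of 0.24 at a CTRL mean of 1.3 CPM.

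Peg3, a zinc finger protein of growth and maternal behaviour, was at 440, 498, 596 and 686 CPM in CTRL and at 623, 590, 379 and 525 CPM in Isl1_hypo. The ranges overlapped, with a log2 fold change of −0.07 (95% interval −0.45 to 0.31). Its divergent neighbour Usp29, a ubiquitin peptidase gene, had a value of 0.36 and the maternally expressed Zim1, a zinc finger gene, one of 0.27, neither past the test. Gnas, the stimulatory G protein subunit, was at 578, 524, 785 and 525 CPM in CTRL and at 540, 428, 387 and 551 CPM in Isl1_hypo. The groups overlapped, with a log2 fold change of −0.34 (95% interval −0.69 to 0.01, edgeR unadjusted p = 0.0557). It ran from −0.19 without CTRL replicate 3 to −0.42 without Isl1_hypo replicate 4, and the unadjusted p was under 0.05 in 6 of 15 alternatives, DESeq2 among them. Gnas had 11 transcripts in the table, of which 9 had mean counts from 16907 to 18137, so these 9 share most of their reads. The other two, NM_019690 and NM_201617, had mean counts of 905 and 12.4 and were not tested separately. Nnat was at 187, 260, 226 and 289 CPM in CTRL and at 222, 166, 218 and 239 CPM in Isl1_hypo. The ranges overlapped and the log2 fold change was −0.19, or −0.57 with the globin covariate (edgeR unadjusted p = 0.0264). Of the genes not described so far, Zdbf2, Mkrn3 and Impact had positive values (0.10 to 0.31), and Blcap, Trappc9, Zrsr1, Inpp5f, Nap1l5 and Mcts2 had negative values (−0.42 to −0.01). Mcts2 and Zrsr1 are retrogenes, and reads may be shared with their parent genes Mcts1 and Zrsr2.

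Further imprinted genes and genes that maintain imprints or oxidise 5-methylcytosine were examined as context. Of 26 other imprinted genes tested, 14 had a positive and 12 a negative log2 fold change, and 2 passed an unadjusted p of 0.05, both higher, Copg2 and Dcn (7.69%, beside 11.9% of all tested genes). Dcn, the matrix proteoglycan decorin, which is imprinted in placenta, went from 23.0 ± 13.6 to 85.6 ± 26.4 CPM (SD, n = 4) with no overlap (log2 fold change 1.89, edgeR adjusted p = 0.0727). Igf2, the growth factor of the H19 domain, was at 2655 ± 261 CPM in CTRL and 2036 ± 686 CPM in Isl1_hypo (log2 fold change −0.38, edgeR unadjusted p = 0.118), with the lowest value in replicate 3. Another list held imprint maintenance genes together with Tet1, Tet2 and Tet3, oxidases of 5-methylcytosine that do not maintain imprints. Of its 13 genes tested, 3 had a positive and 10 a negative value, where all tested genes split into 7007 and 6762. The Tet genes were all negative (−0.10, −0.69 and −0.23 in that order). In the list 2 genes passed an unadjusted p of 0.05 (15.4%, beside the same 11.9%). These were Dnmt1, the maintenance DNA methyltransferase, at 183 ± 26.0 against 142 ± 13 CPM (−0.37, edgeR adjusted p = 0.284), and Tet2, an oxidase of 5-methylcytosine, at 20.8 ± 4.31 against 12.9 ± 0.987 CPM (−0.69, edgeR adjusted p = 0.170). Of 25 neighbours of imprinted domains 15 were positive and 10 negative, and 3 passed an unadjusted p of 0.05 (12.0%, again beside 11.9% of all genes), Pdk4 (−0.46), Cobl (0.63) and Fignl1 (0.38).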

How the data were processed

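Polyadenylated RNA of 4 CTRL and 4 Isl1_hypo embryos was sequenced on BGISEQ-500. The authors aligned reads with STAR to mm9 and deposited whole-number exon counts per RefSeq transcript, made with HOMER without regard to strand. RPKM values made by the authors with edgeR, and the columns of their DESeq2 comparison (mean, fold change, error, statistic and p-values), were not used. The transcript with the highest mean count was kept per symbol (20701 symbols, 31507 rows). Genes were filtered with filterByExpr, libraries scaled by TMM, and groups compared with glmQLFit and glmQLFTest of edgeR 4.0.16 (R 4.3.3), with adjustment over 13769 genes. DESeq2 1.42.0 was an alternative. The script was tested on simulated data.

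Depth-scaled values are CPM on TMM-scaled library sizes, and levels of different genes were compared as CPM per kb. Intervals are at 95%, and the floor for a count of 0 is 3 counts, for counting error only. The exact permutation test covered 70 assignments. Libraries are single embryos, and same-numbered CTRL and Isl1_hypo libraries are not paired in the labels. Alternatives were other size factors, filters, transcripts, a replicate block, a globin covariate and leaving out each library.

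The genes and lists were chosen with earlier results of these data known. Values in all libraries were given for genes with an unadjusted p under 0.05, the 6 highest length-scaled genes, and Cdkn1c, Dlk1, Peg3, Mest, Grb10 and Plagl1 (H19, Meg3 and Rian had no row). From the lists, genes with an unadjusted p under 0.05 and Igf2 were named. The values of Gnas, Peg10, Slc22a18 and other genes were added after they were seen. Positions in mm9 are from GENCODE, and promoter windows from RefSeq (GRCm38.p6) were found for 29 of the 35 genes.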

Additional observations from a re-analysis of the deposited data

Results flagged for a closer look

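In 4 of 70 groups examined 1 embryo lay far from the other 3, where chance gives about 1 in 20 groups, or 3.5. Ppp1r9a was at 38.4 CPM in CTRL replicate 1, against 16.2 to 19.96 CPM in the other CTRL embryos. Peg12 was at 123 CPM in Isl1_hypo replicate 3, against 50.7 to 62.0 CPM in the others. Mcts2 was at 24.2 CPM in the same embryo, against 33.8 to 34.9 CPM. Impact was at 76.3 CPM in Isl1_hypo replicate 4, against 94.96 to 97.6 CPM in the others.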

How the results depend on the processing

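Asb4, Phlda2, Tspan32, Mest and Magel2 kept their direction in every alternative that gave a value. Their unadjusted p stayed under 0.05 in 15 of 15 alternatives for Asb4, 14 of 15 for Phlda2 and for Tspan32, 7 of 15 for Mest and 9 of 14 for Magel2, which the 10-count filter removed. DESeq2 called 319 genes in all against 37 by edgeR, and 2 of the imprinted genes, Asb4 (−0.66, adjusted p = 0.00550) and Tspan32 (1.18, adjusted p = 0.0284). With a minimum of 10 counts in every library 3 of 30 imprinted genes had an unadjusted p under 0.05 (12.6% of all genes), and the median of the paternally expressed genes was 0.060. With the globin covariate, which nearly follows the groups, edgeR called 0 genes (528 at an unadjusted p under 0.05), 2 imprinted genes passed the unadjusted threshold (3.83% of all genes), and Isl1 was at −2.55 (adjusted p = 0.632). In that fit the sign turned for Cdkn1c (−0.15), Ascl2 (0.40), Cd81 (−0.15), Ppp1r9a (0.46), Snrpn (−0.053), Blcap (0.0024), Grb10 (0.032), Zdbf2 (−0.089), Impact (−0.011), Nap1l5 (0.10) and Mcts2 (0.0037); the cause was not tested.

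Same-numbered libraries correlated by −0.021 to 0.022 in their deviations, and other pairs of a CTRL and an Isl1_hypo library by −0.064 to 0.058. No sign of pairing by replicate number was seen, which does not exclude it. With the replicate block edgeR called 0 genes (1582 unadjusted), the paternally expressed median was −0.076, Isl1 was at −2.29 (adjusted p = 0.0722), 6 imprinted genes, Peg10 among them, passed the unadjusted threshold (11.5% of all genes), and Slc22a18 (−0.35) and Dlk1 (−0.11) turned sign.

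Leaving out 1 library gave 4 (without CTRL replicate 3) to 48 genes called in all, with 8 without CTRL replicate 1, 5 without CTRL replicate 2, 12 without Isl1_hypo replicate 2 and 11 without Isl1_hypo replicate 4. It gave 0 to 1 imprinted genes by adjusted and 4 to 9 by unadjusted p, both highest without Isl1_hypo replicate 1, where 13.8% of all genes had an unadjusted p under 0.05 (9.26% to 13.8% over these fits). The paternally expressed median ran from −0.049 to 0.071, the maternally expressed median from −0.13 to 0.16 (without CTRL replicate 1), and the log2 globin difference from 1.67 to 2.50 (exact permutation p = 0.0286 without CTRL replicate 4). Signs turned within these ranges for Slc22a18 (−0.21 to 0.70), Ascl2 (−1.13 to 0.29), Cd81 (−0.088 to 0.30), Dlk1 (−0.34 to 0.33), Peg3 (−0.17 to 0.061), Ppp1r9a (−0.28 to 0.20), Peg12 (−0.067 to 0.45), Blcap (−0.081 to 0.097), Plagl1 (−0.044 to 0.22), Inpp5f (−0.15 to 0.018) and Mcts2 (−0.12 to 0.043). Depth limits Magel2, Ascl2, Slc22a18 and Rtl1, which had few counts.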
